A study of Mus musculus with 6 samples.

Results

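Trem2, Tyrobp, Gpnmb, Lgals3, Fabp5, Plin2 and Cd9 are 7 genes whose joint expression marks the lipid-laden macrophages of plaque, often called Trem2-type foamy macrophages. They were taken by gene symbol from a table of raw counts that held 24062 symbols, and all 7 were found there and passed the filter on low counts. The 6 samples were plaque of the aortic arch from mice that lack the low-density lipoprotein receptor, on a C57BL/6 background. Every mouse was fed high-fat chow over 12 weeks, then switched to low-fat chow over 3 further weeks. The 3 ABT263 samples came from mice given ABT263 (navitoclax, a small molecule that blocks the anti-apoptotic BCL-2 family and is used to remove senescent cells) by intraperitoneal injection, 100 mg/kg given 1 time daily during week 1 on low-fat chow. The 3 vehicle samples came from mice given the carrier. The labels give neither the age nor the sex of the mice, the number of doses, nor whether each sample was 1 animal, so the spread behind every p-value may be technical.

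Macrophages that take up lipoprotein in the vessel wall store its cholesterol as ester in lipid droplets and become foam cells. TREM2 is a lipid-sensing receptor on their surface with no signalling motif of its own. It signals through the adaptor TYROBP (DAP12), whose paired tyrosines recruit the kinase SYK. GPNMB and galectin-3, the product of Lgals3, are found with lysosomes and phagocytic uptake, FABP5 carries fatty acids, perilipin 2 coats lipid droplets, and CD9 is a tetraspanin that organises membrane proteins. None of the 7 is confined to foam cells: osteoclasts and melanocytes also make GPNMB, platelets and smooth muscle make CD9, and NK cells and neutrophils make TYROBP.

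The activation motif of TYROBP is shown first because it is what links the receptor to the genes further down the pathway. The coding bases below, read from the GENCODE M21 transcripts Tyrobp-201 and Fcer1g-201, cover the stretch of 45 bases from the first tyrosine codon of the motif to its last leucine codon, 5′ to 3′. Capitals mark the tyrosine codons, which are codons 92 and 103 of the 114 of Tyrobp and codons 65 and 76 of the 86 of Fcer1g. Fcer1g encodes the Fc receptor gamma chain, the adaptor of related build whose values are given further on.
Tyrobp activation motif: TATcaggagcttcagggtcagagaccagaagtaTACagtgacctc
Fcer1g activation motif: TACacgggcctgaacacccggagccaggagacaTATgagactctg

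RefSeq (GRCm38.p6) gave a promoter window, 250 bases before the start and 50 after it, for 5 of the 7 genes: Trem2, Gpnmb, Lgals3, Plin2 and Cd9. The windows were searched on both strands for the E-box CACGTG, the M-box core CATGTG or CACATG, the AP-1 site TGACTCA or TGAGTCA and the PU.1 core GAGGAA or TTCCTC, motifs picked after the sequences had been read. Of all 32851 windows of 300 bases, 7.15% held the E-box, 14.2% the M-box core, 5.20% the AP-1 site and 28.3% the PU.1 core. Each of the 4 windows below held 1 match, in capitals, and no match overlapped another. They are the receptor, the gene of highest mean CPM, the droplet coat gene and Cd9, the member whose mean CPM was not lower with ABT263. The windows lie at chr17:48346151-48346450 (plus strand), chr6:49036268-49036567 (plus), chr4:86670010-86670309 (minus) and chr6:125494711-125495010 (minus).
Trem2 promoter: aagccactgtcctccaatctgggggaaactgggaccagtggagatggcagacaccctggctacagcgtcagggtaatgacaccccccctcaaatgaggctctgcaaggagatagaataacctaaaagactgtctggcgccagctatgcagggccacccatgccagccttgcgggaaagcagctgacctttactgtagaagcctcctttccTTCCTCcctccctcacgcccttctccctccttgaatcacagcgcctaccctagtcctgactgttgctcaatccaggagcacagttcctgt
Gpnmb promoter: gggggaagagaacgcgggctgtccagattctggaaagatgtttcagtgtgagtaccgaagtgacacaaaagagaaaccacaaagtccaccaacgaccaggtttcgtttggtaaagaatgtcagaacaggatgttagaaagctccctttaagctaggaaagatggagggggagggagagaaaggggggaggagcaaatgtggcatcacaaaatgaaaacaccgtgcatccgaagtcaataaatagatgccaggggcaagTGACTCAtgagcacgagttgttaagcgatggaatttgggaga
Plin2 promoter: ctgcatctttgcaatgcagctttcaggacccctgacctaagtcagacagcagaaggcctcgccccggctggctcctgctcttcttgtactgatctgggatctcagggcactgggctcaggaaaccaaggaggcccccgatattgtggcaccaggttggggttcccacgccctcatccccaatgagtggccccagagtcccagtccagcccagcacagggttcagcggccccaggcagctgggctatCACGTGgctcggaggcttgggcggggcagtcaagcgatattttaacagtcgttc
Cd9 promoter: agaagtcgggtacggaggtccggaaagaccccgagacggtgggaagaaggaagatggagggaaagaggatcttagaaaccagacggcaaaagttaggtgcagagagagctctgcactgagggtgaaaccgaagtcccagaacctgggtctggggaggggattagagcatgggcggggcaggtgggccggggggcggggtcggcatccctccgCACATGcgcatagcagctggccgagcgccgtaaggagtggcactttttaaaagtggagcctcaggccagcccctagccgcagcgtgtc
The Trem2 window held the PU.1 core at base 211 of the window, Gpnmb the AP-1 site at base 259, Plin2 the E-box at base 247 and Cd9 the M-box core at base 213. No 2 of the genes shared a motif among those searched.

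Total counts per library ran from 62930547 to 91688075 with ABT263 and from 67236568 to 110452098 with vehicle, so that 3 counts came to at most 0.0480 CPM (counts scaled to the library total after TMM normalisation). The 7 genes had at least 14898 counts each in every library, far from where counting error matters. A pair of libraries stood apart by markers that are not among the 7 genes. ABT263 replicate 2 had a summed level of 5282 CPM over 9 adipocyte markers, against 202 to 430 CPM in the 5 other libraries, and vehicle replicate 2 had the highest summed level of 9 inflammatory macrophage markers, at 562 CPM against 85.1 to 253 CPM elsewhere. Vehicle replicate 2 also had the lowest summed level of endothelial markers, at 418 CPM against 1713 to 4938 CPM elsewhere. The fold changes of the members are therefore given with and without each of these libraries, and those of other genes in places.

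No member passed the test between ABT263 and vehicle. The quasi-likelihood test of edgeR, adjusted by Benjamini-Hochberg over all 15222 genes tested, called 0 of the 7, as it called 0 genes in all (0%), and 0 of the 7 had an unadjusted p under 0.05, against 3.68% of all genes on the lower side and 4.70% on the higher side. DESeq2 also called 0 of the 7, with 0.552% of genes called lower and 0.453% called higher. The log2 fold change (ABT263 over vehicle) was below 0 for 6 of the 7 members, where 49.9% of all genes had a value below 0. The median over the 7 was -0.62, against 0.0010 over all genes tested. Groups did not overlap for 1 of the 7, Trem2, on the lower side, where 6.31% of all genes did so, and for 0 on the higher side, where 5.68% did. These shares over all genes also stand beside the counts given for other gene lists below.

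The receptor and its adaptor came first. Trem2 (chromosome 17, 48346401 to 48354147, mm10) stood at 561, 221 and 453 CPM in ABT263 replicates 1 to 3, against 801, 652 and 567 CPM in vehicle replicates 1 to 3. Every ABT263 library lay below every vehicle library, though the highest of the first, at 561 CPM, was close to the lowest of the second, at 567 CPM. The means were 412 ± 174 CPM with ABT263 and 673 ± 119 CPM with vehicle (SD, n = 3 each), and the log2 fold change was -0.71 (SE 0.38, edgeR adjusted p = 0.655). Without ABT263 replicate 2 it was -0.40, and over the 6 fits that left out 1 library it ran from -1.002 to -0.40, below 0 in each.

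Tyrobp (chromosome 7, 30413760 to 30417585), which passes on the signal of TREM2 and of several other myeloid receptors, stood at 664, 225 and 385 CPM with ABT263, against 593, 949 and 402 CPM with vehicle. The groups overlapped: ABT263 replicate 1 was the second highest of the 6 libraries, and vehicle replicate 2 the highest. Its log2 fold change was -0.61 (SE 0.49, edgeR adjusted p = 0.783). Without vehicle replicate 2 the value was -0.23, without ABT263 replicate 2 it was -0.30, and without both it was 0.077, so the sign of the Tyrobp value rested on those 2 libraries.

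**Figure D1:**
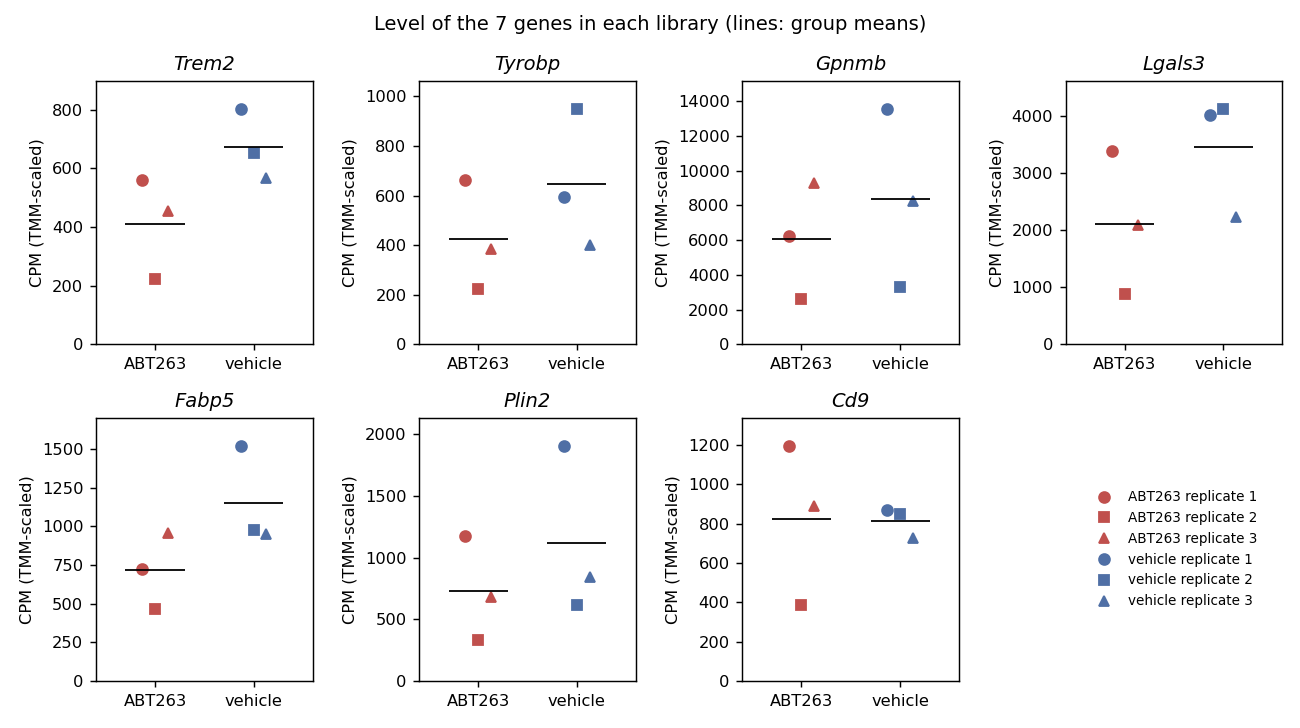
Level of each of the 7 genes in each library, in CPM after TMM scaling on linear axes that start at 0, with ABT263 to the left of vehicle in every panel, 1 point per library and a line at each group mean (n = 3). For Trem2 the 3 ABT263 points, 221 to 561 CPM, all lie below the 3 vehicle points, 567 to 801 CPM, and in every panel ABT263 replicate 2 is the lowest of the 6 libraries.

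Gpnmb, the glycoprotein of lysosomes and phagosomes (chromosome 6, 49036546 to 49070929), had the highest mean CPM of the 7, though Lgals3 lay above it in vehicle replicate 2. It stood at 6238, 2634 and 9295 CPM with ABT263, against 13544, 3293 and 8226 CPM with vehicle. The groups overlapped throughout, with ABT263 replicate 3 above 2 of the 3 vehicle libraries and vehicle replicate 2 above 1 ABT263 library. The spread within each group was wide: the highest vehicle library had 4.11 times the level of the lowest, and the highest ABT263 library 3.53 times that of the lowest. The log2 fold change was -0.46 (SE 0.70, edgeR adjusted p = 0.911). Its sign turned, to 0.071, without vehicle replicate 1, and it was -0.095 without ABT263 replicate 2 and -0.85 without vehicle replicate 2.

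Lgals3, the galectin that macrophages secrete and that binds damaged lysosomes (chromosome 14, 47367751 to 47386160), stood at 3376, 875 and 2085 CPM with ABT263, against 4014, 4112 and 2233 CPM with vehicle. ABT263 replicate 1 lay above vehicle replicate 3, so the groups overlapped. The log2 fold change was -0.71 (SE 0.56, edgeR adjusted p = 0.779), or -0.33 without ABT263 replicate 2 and -1.23 without ABT263 replicate 1. Its value thus moved by more than 1.5 times with either of these libraries left out, and it stayed below 0 in all 6 such fits.

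The lipid-handling members were Fabp5 and Plin2. Fabp5 (chromosome 3, 10012548 to 10016607) stood at 724, 467 and 956 CPM with ABT263, against 1519, 978 and 948 CPM with vehicle. The groups overlapped only between ABT263 replicate 3, at 956 CPM, and vehicle replicate 3, at 948 CPM. The log2 fold change was -0.68 (SE 0.37, edgeR adjusted p = 0.655), and -0.44 without ABT263 replicate 2 or -0.43 without vehicle replicate 1. A processed pseudogene of Fabp5, Fabp5l2, is annotated, so how multi-mapping reads were treated could bear on the count of Fabp5.

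Plin2, which encodes the droplet coat protein found in most cells that store lipid (chromosome 4, 86648386 to 86670060), stood at 1175, 331 and 683 CPM with ABT263, against 1907, 619 and 841 CPM with vehicle. The groups overlapped, with vehicle replicate 2 below both ABT263 replicates 1 and 3. The log2 fold change was -0.62 (SE 0.60, edgeR adjusted p = 0.837). It was -0.001 without vehicle replicate 1, the library where Plin2 was highest, -0.26 without ABT263 replicate 2 and -1.15 without ABT263 replicate 1. Without vehicle replicate 1 the fitted levels of the groups were thus nearly equal.

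Cd9 was the member whose log2 fold change over all 6 libraries was not below 0. This tetraspanin gene (chromosome 6, 125460266 to 125494791) stood at 1195, 386 and 889 CPM with ABT263, against 868, 849 and 728 CPM with vehicle. ABT263 replicates 1 and 3 lay above every vehicle library and ABT263 replicate 2 lay below every one. The means were 823 ± 408 CPM with ABT263 and 815 ± 75.8 CPM with vehicle (SD, n = 3 each), and the log2 fold change was 0.015 (SE 0.43, edgeR adjusted p = 0.996). It was 0.36 without ABT263 replicate 2 and -0.36 without ABT263 replicate 1, so the direction is not set by these data. In the annotation, 218 of the 2044 exonic bases of Cd9 are shared with Gm26728 on the opposite strand, and the libraries did not mark strand, so reads there could belong to either. A processed pseudogene, Cd9-ps, is also annotated, so how multi-mapping reads were treated could bear on the count of Cd9.

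**Figure D2:**
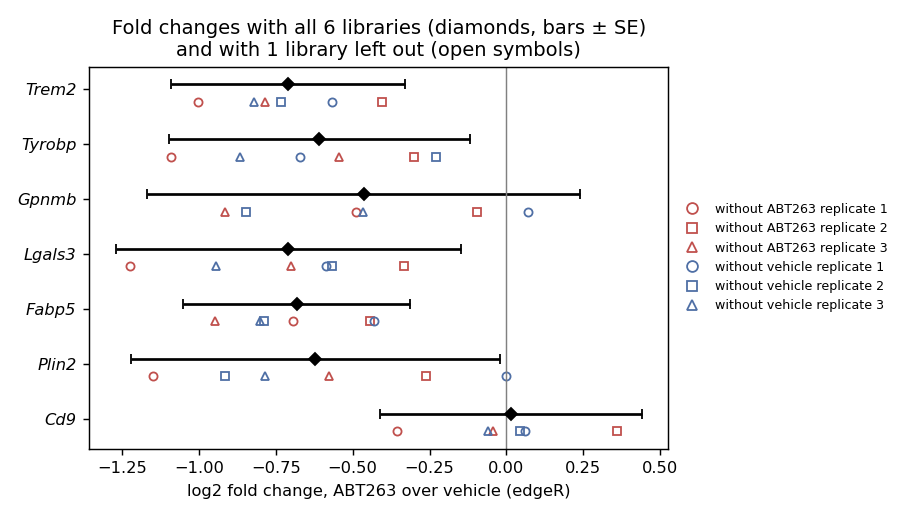
Log2 fold change (ABT263 over vehicle, edgeR) of each gene on the horizontal axis, with the black diamond and bar for the fit on 6 libraries ± SE and an open symbol for each fit that left out 1 library. Trem2, Tyrobp, Lgals3 and Fabp5 stay below 0 in all 6 such fits, Plin2 reaches -0.001 and Gpnmb 0.071 without vehicle replicate 1, and Cd9 lies on both sides of 0.

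Over the fits that left out 1 library, 5 of the 7 members kept a value below 0 in every fit (Trem2, Tyrobp, Lgals3, Fabp5 and Plin2), where 25.6% of all genes did. The median over the 7 ran from -1.002 without ABT263 replicate 1 to -0.30 without ABT263 replicate 2. It was -0.73 without vehicle replicate 2 and -0.43 without both libraries numbered 2. Without vehicle replicate 2 the single values were -0.73 (Trem2), -0.23 (Tyrobp), -0.85 (Gpnmb), -0.57 (Lgals3), -0.79 (Fabp5), -0.91 (Plin2) and 0.044 (Cd9). ABT263 replicate 2, the library with high adipocyte markers, was the lowest of the 6 for all 7 members. That library also had the lowest summed level of 15 macrophage markers, at 10258 CPM against 19305 to 32550 CPM elsewhere. Its summed level of contractile smooth muscle markers was the highest, at 15851 CPM. In bulk tissue, fewer cells of a type and less RNA of these genes per cell cannot be told apart. The part of the cell content of that library, adipocytes included, in these levels was not tested.

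Compared per length, Lgals3 and Gpnmb had the highest means of the 7. Per kilobase of the median protein-coding transcript, the level of Lgals3 was 2458 ± 1456 with ABT263 and 4020 ± 1231 with vehicle (CPM per kb, SD, n = 3 each), and that of Gpnmb 1975 ± 1088 with ABT263 and 2725 ± 1672 with vehicle. These means placed Lgals3 at rank 20 with ABT263 and rank 11 with vehicle among 13789 genes, and Gpnmb at ranks 26 and 23. Plin2 followed at 1033 ± 600 with ABT263 and 1588 ± 975 with vehicle, then Tyrobp at 732 ± 383 and 1116 ± 478 and Fabp5 at 725 ± 248 and 1163 ± 326, in the same order of groups. The level of Cd9 was 670 ± 333 CPM per kb with ABT263 and 663 ± 61.7 with vehicle, and that of Trem2 384 ± 162 with ABT263 and 628 ± 111 with vehicle, the lowest of the 7 in both groups.

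With the members ranked by mean within each group, the mean ± SD of each overlapped that of its neighbour in rank, Gpnmb and Plin2 as well as Cd9 and Trem2 included. All were measured in the same libraries, so this overlap does not say whether the order held within each library. That order was not tested. Per kilobase of all exons joined, Lgals3 and Gpnmb were again the highest and Trem2 the lowest, but Tyrobp then came next after them and Plin2 moved down to 208 with ABT263 and 320 with vehicle. The place of the middle members thus depends on which transcripts are counted, and which transcripts the authors counted over is not given in these sources.

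The 7 genes varied more between libraries than most genes did. The median SD of log2 CPM between the 3 replicates was 0.85 over the members and 0.31 over all genes with ABT263, and 0.50 over the members and 0.38 over all genes with vehicle. In vehicle, Cd9 and Trem2 varied less than the median gene. The SD of log2 CPM was 0.85 with ABT263 and 0.14 with vehicle for Cd9, and 0.70 with ABT263 and 0.25 with vehicle for Trem2. The profiles over the 6 libraries fell into different shapes. Tyrobp and Lgals3 were highest in vehicle replicate 2, the library with high inflammatory macrophage genes, whereas Gpnmb and Plin2 were low there, above ABT263 replicate 2 alone. Gpnmb, Plin2, Fabp5 and Trem2 were highest in vehicle replicate 1.

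The likeness of 2 profiles was measured as the root mean square difference of their log2 CPM, each centred on its own mean over the 6 libraries. Tyrobp and Lgals3 were the closest pair at 0.26, and Trem2 was nearly as close to Fabp5 (0.26) and to Lgals3 (0.27). Tyrobp and Gpnmb were the farthest apart at 0.98, with 9.39, 11.7 and 24.1 CPM of Gpnmb per CPM of Tyrobp in the ABT263 libraries, against 22.8, 3.47 and 20.5 in the vehicle libraries. Trem2 and its adaptor differed less. Trem2 stood at 0.84, 0.98 and 1.18 times the CPM of Tyrobp with ABT263, against 1.35, 0.69 and 1.41 times with vehicle, so the groups overlapped.

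**Figure D3:**
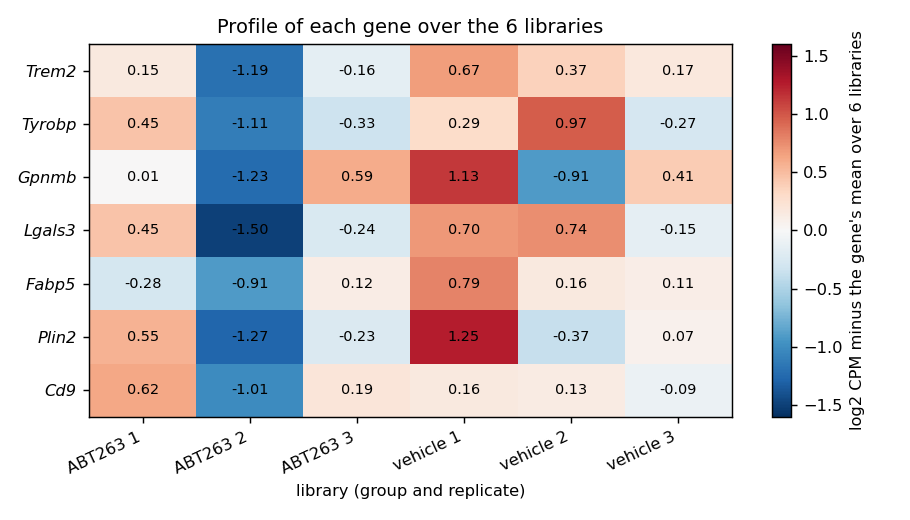
Log2 CPM of each gene minus its own mean over the 6 libraries, with libraries in columns (ABT263 to the left of vehicle) and genes in rows. ABT263 replicate 2 is the lowest column for all 7 genes, from -0.91 for Fabp5 to -1.50 for Lgals3, and in vehicle replicate 2 Tyrobp (0.97) and Gpnmb (-0.91) lie on opposite sides of their means.

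The macrophage marker lists did not all lie on 1 side of 0. All 15 markers of the macrophage list, which shares no gene with the 7, had a log2 fold change below 0 (median -0.79). Of the 15, 9 had groups that did not overlap, on the lower side, where 6.31% of all genes did so. None of the 15 passed the test. Their summed level was 10258 to 20544 CPM with ABT263 and 21652 to 32550 CPM with vehicle, with no marker at 0. Csf1r, which encodes the CSF1 receptor, stood at 234 ± 21.6 CPM with ABT263 and 383 ± 45.6 CPM with vehicle (SD, n = 3 each, log2 fold change -0.71, edgeR adjusted p = 0.592). C1qc, a complement gene of tissue macrophages, had a log2 fold change of -1.23. Of 9 inflammatory macrophage markers, 7 lay below 0, with a median of -1.15, or -0.40 without vehicle replicate 2. Of 9 resident-like macrophage markers, 6 lay above 0, with a median of 1.75, or 0.008 without ABT263 replicate 2. Cbr2 (1.75) and Lyve1 (4.31) of that list had groups that did not overlap, and without ABT263 replicate 2 their values were 1.117 and 1.65. None of these markers passed the test.

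To set the members beside the macrophage genes of each library, the mean log2 CPM of these 15 genes was taken from the log2 CPM of each member. That mean was highest in vehicle replicate 2, whereas the summed level of the same genes was highest in vehicle replicate 1. The mean was itself lower in every ABT263 library (7.86 to 8.73) than in every vehicle library (8.94 to 9.61). On this scale none of the 7 was lower with ABT263 on average over all 6 libraries, but 4 were without ABT263 replicate 1 and 4 without vehicle replicate 2. Trem2 stood at 0.53, -0.07 and 0.09 in the ABT263 libraries, against 0.30, -0.26 and 0.21 in the vehicle libraries, a difference of 0.10 between the means (exact permutation p = 0.8, two-sided). The differences of Tyrobp, Gpnmb, Lgals3, Fabp5 and Plin2 ran from 0.04 for Lgals3 to 0.48 for Gpnmb, each with overlapping groups and exact permutation p of 0.6 to 0.9. The sign for Trem2 was not settled: its difference was -0.07 without ABT263 replicate 1, -0.07 without vehicle replicate 2 and -0.04 against Cd68, Csf1r and Laptm5 alone.

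Cd9 was the member whose groups did not overlap on this scale. As the macrophage mean was lower with ABT263, a gene of steady CPM tends to come out higher there. The share of all genes with separate groups on this scale was not computed. Cd9 stood at 1.62, 0.73 and 1.06 log2 units above the macrophage genes in the ABT263 libraries, against 0.41, 0.12 and 0.57 in the vehicle libraries. The means were 1.14 ± 0.45 with ABT263 and 0.37 ± 0.23 with vehicle (SD, n = 3 each), a difference of 0.77 (exact permutation p = 0.1, the smallest that 3 against 3 allows, and 0.7 adjusted over the 7 genes). The difference stayed between 0.53 and 0.98 with any 1 library left out. Against Trem2 alone, a pair picked after the values had been seen, Cd9 stood at 2.13, 1.75 and 1.96 times the CPM of Trem2 with ABT263 and at 1.08, 1.30 and 1.28 times with vehicle.

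Cd9 is made by many cells of the vessel wall. Contractile smooth muscle markers summed to 2414, 15851 and 9795 CPM in the ABT263 libraries, against 2622, 2981 and 3618 CPM in the vehicle libraries. Platelet markers summed to 20.1 to 41.7 CPM with ABT263 and 21.8 to 148.5 CPM with vehicle, and endothelial markers to 1713 to 4938 CPM with ABT263 and 418 to 4734 CPM with vehicle. The part of these cells in the Cd9 level was not tested.

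**Figure D4:**
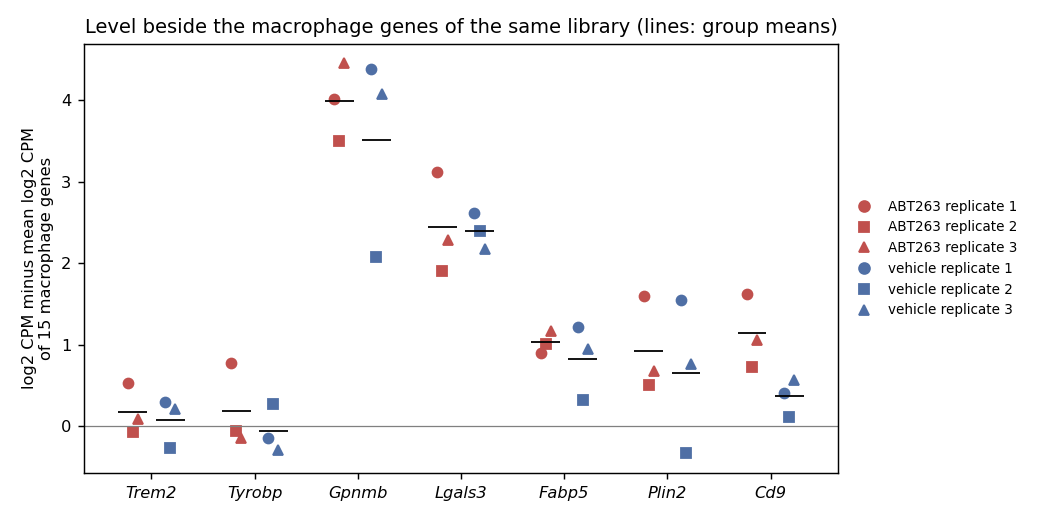
Log2 CPM of each gene minus the mean log2 CPM of 15 macrophage genes in the same library, with 1 point per library, ABT263 to the left of vehicle for each gene and lines at the group means (n = 3). Cd9 is the gene whose ABT263 points, 0.73 to 1.62, all lie above its vehicle points, 0.12 to 0.57, and the other 6 overlap.

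Among the relatives of Trem2, 5 of 5 other Trem and Treml genes had a log2 fold change below 0 (median -1.08, none called). Treml4, a myeloid receptor, stood at 2.50, 2.27 and 1.77 CPM with ABT263, against 5.89, 9.72 and 9.70 CPM with vehicle (log2 fold change -1.95, SE 0.32). Treml2, which lies in the same gene cluster as Trem2, had -1.08 (SE 0.38) and Trem3 -1.76 (SE 0.74), each with groups that did not overlap. Trem1, the activating receptor of neutrophils and monocytes (-0.49), and Treml1 of platelets (-0.89) overlapped. All 5 were expressed at far lower CPM than Trem2, none above 26.8 CPM in any library.

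Of the ligands and shedding enzymes, none passed. Apoe, whose product binds TREM2 and carries cholesterol away from foam cells, stood at 5978, 7276 and 11598 CPM with ABT263, against 20255, 10565 and 18216 CPM with vehicle (log2 fold change -0.98, SE 0.54). ABT263 replicate 3 lay above vehicle replicate 2, so the groups overlapped. Clu, which encodes clusterin, another lipoprotein bound by TREM2, had 0.62 (SE 0.44). Adam10 and Adam17, the proteases that shed the receptor's outer part, had 0.087 and -0.33, and Anxa1 -0.11.

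The 12 genes listed for signalling below TYROBP included the inhibitory phosphatases Ptpn6 and Inpp5d. All 12 had a log2 fold change below 0 (median -0.71), where 49.9% of all genes did, with Ptpn6 at -1.21 and Inpp5d at -0.77. The macrophage markers had a median of -0.79. Of the 12, 6 had groups that did not overlap, on the lower side, where 6.31% of all genes did so. None was called. Those of smallest p were Pik3ap1, an adaptor for PI 3-kinase, at -1.04 (SE 0.30), Vav1, an exchange factor for Rac, at -0.95 (SE 0.32), and Grb2, a general adaptor, at -0.58 (SE 0.22). Syk, the kinase that binds the paired tyrosines shown above, had -0.63 (SE 0.35), and the phospholipase Plcg2 had -0.49 (SE 0.32), both named for their place in the pathway and both with overlapping groups. The median of the list was -0.45 without ABT263 replicate 2 and -0.38 without both libraries numbered 2. B cell markers summed to 30.6 to 84.5 CPM with ABT263 and 106 to 182 CPM with vehicle. The part of lymphocytes and of macrophages in the values of this list was not tested, and these genes were not set beside the macrophage mean.

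The 3 other adaptors also had values below 0. Fcer1g stood at 315, 132 and 243 CPM with ABT263, against 383, 767 and 280 CPM with vehicle (log2 fold change -1.05, SE 0.48), highest in vehicle replicate 2 as Tyrobp was, and -0.53 without that library. Hcst (DAP10), which uses a YxxM motif to recruit PI 3-kinase, had -1.44 (SE 0.49), and Cd247, the zeta chain of T and NK cells, -0.93 (SE 0.41), both with groups that did not overlap. Of 11 receptors linked to TYROBP, 11 had a value below 0 (median -0.77, or -0.24 without both libraries numbered 2). Those of smallest p were Treml4, Cd300e at -2.03 (SE 0.51) and Csf1r. Trem1, Trem3 and Treml4 are also among the Trem and Treml genes above, and Csf1r among the macrophage markers, so these lists are not independent. Some of the receptors had low levels, such as Siglech at 0.062 to 1.05 CPM. Markers of T and NK cells, which also use these adaptors, summed to 26.4 to 78.0 CPM with ABT263 and 95.5 to 182 CPM with vehicle, and neutrophil markers to 47.9 to 127 CPM with ABT263 and 121 to 278 CPM with vehicle. Their part in the adaptor values was not tested.

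Of 30 other genes of lipid-associated macrophages, 26 had a log2 fold change below 0 and 4 above it, with a median of -0.58, close to that of the 7 members, and none was called. Clec7a (dectin-1, a receptor for fungal glucans) stood at 269 ± 53.6 CPM with ABT263 and 513 ± 92.1 CPM with vehicle (SD, n = 3 each, log2 fold change -0.94, SE 0.26, edgeR adjusted p = 0.592), with groups that did not overlap. Cst7, a cystatin, had -2.83, but its 15.6 CPM in vehicle replicate 2 set that value, which was -0.84 without this library. Csf1, the growth factor of macrophages, stood at 136, 119 and 123 CPM with ABT263, against 95.7, 89.0 and 101 CPM with vehicle (log2 fold change 0.40, SE 0.16), and was the 1 gene of the 30 whose ABT263 libraries all lay above the vehicle libraries. The median of the list was -0.29 without ABT263 replicate 2.

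All 8 genes of cholesterol efflux and esterification had a value below 0 (median -0.66, or -0.41 without ABT263 replicate 2, none called). Nr1h3, the sterol receptor LXR-alpha, had -0.69 (SE 0.23) and Mylip, an LXR target that degrades lipoprotein receptors, -0.66 (SE 0.24), both with groups that did not overlap, and Soat1, which makes cholesterol ester, -0.65 (SE 0.45). The MiT/TFE factors, which drive lysosomal genes and Gpnmb, were Mitf at -0.39, Tfeb at -0.32, Tfe3 at -0.22 and Tfec at -0.59. Among them Tfeb alone had groups that did not overlap, at 42.0, 35.4 and 37.7 CPM with ABT263, against 47.9, 49.4 and 46.0 CPM with vehicle.

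**Figure D5:**
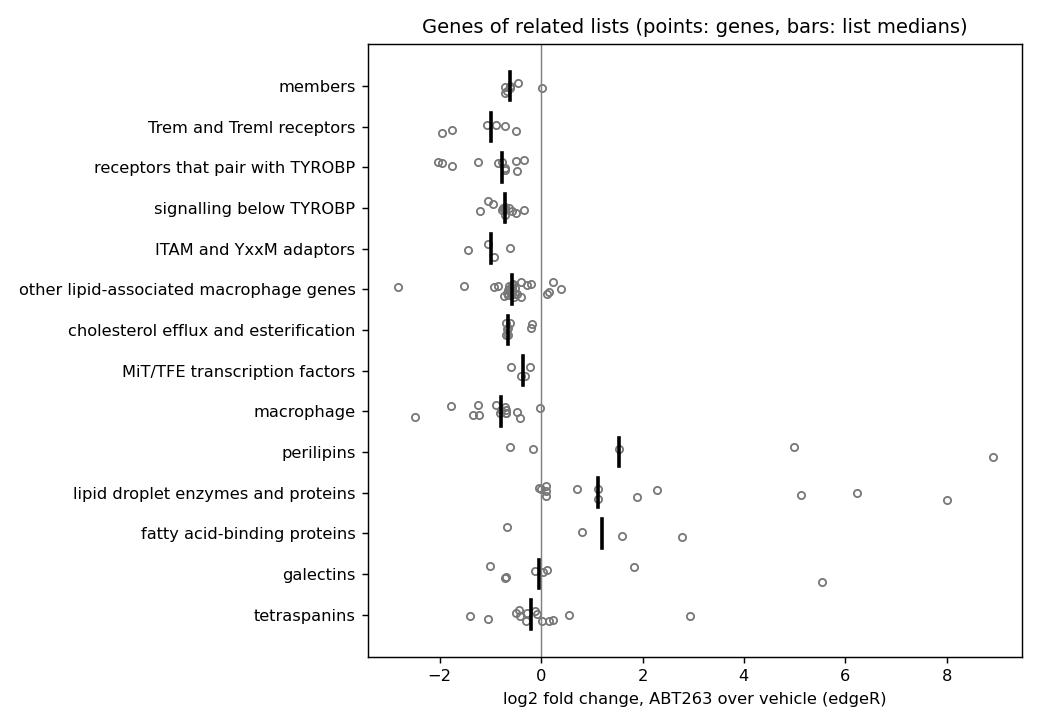
Log2 fold change (ABT263 over vehicle, edgeR) of each gene kept in the 7 members and 13 related lists, 1 open circle per gene with the list median as a bar. The lists from the members down to the macrophage markers lie mostly below 0, with medians from -0.99 to -0.35. They include the cholesterol and MiT/TFE lists, which are not lists of myeloid genes. The perilipin, lipid droplet and fatty acid-binding protein lists reach up to 8.91, the value of Plin1, which was high in ABT263 replicate 2 alone.

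Several relatives of Plin2 and Fabp5 were highest in the library with high adipocyte markers. Plin1 and Fabp4, and Cidec, Lipe and Pnpla2 of the lipid droplet list, are themselves among those markers. Their levels in that library are thus not a separate observation. Plin1, the perilipin of adipocytes, stood at 282 CPM in ABT263 replicate 2 and at 0.11 to 0.29 CPM in the 5 other libraries, and Plin5 and Plin4 were likewise highest there, at 22.03 and 413 CPM. Plin3, the perilipin of most cells, had a log2 fold change of -0.17. Of 13 lipid droplet enzymes and proteins, 12 had a value above 0 (median 1.11, none called), led by Cidec, Cidea and Dgat2 at 8.01, 6.24 and 5.12, and the median was -0.13 without ABT263 replicate 2. Plin2 and Fabp5 were lowest in that library, whereas Fabp4, the form shared by adipocytes and macrophages, stood at 198, 1292 and 118 CPM with ABT263, against 285, 60.2 and 187 CPM with vehicle. Fabp3 had 2.78, or 0.90 without that library, and Fabp7 0.82, or 1.30 without it. Among the PPAR and RXR receptors, which act on Plin2 and the Fabp genes, Ppard (0.023), Rxra (-0.12) and Rxrb (-0.23) lay near 0. Ppara (4.67), Rxrg (2.85) and Pparg (-0.031) were highest in ABT263 replicate 2, and without it their values were 0.91, -0.14 and -0.48.

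The galectin list and the tetraspanins went both ways. Of the 7 genes of the galectin list other than Lgals3, 3 had values below 0 and 4 above it. Lgals3bp, whose product binds galectin-3 and is not itself a galectin, had a log2 fold change of -1.01 (SE 0.32). Lgals9 had -0.69 (SE 0.29), and both had groups that did not overlap. Lgals9 had -0.33 without vehicle replicate 2. Lgals2 had 1.82 (SE 0.87), or 0.37 without ABT263 replicate 2, where it was highest. Of 13 tetraspanins other than Cd9, 9 had values below 0 and 4 above it. Cd37, a tetraspanin of leukocytes, had -1.04 (SE 0.30), and Cd151, one of adhesive cells of the vessel wall, stood at 299, 323 and 267 CPM with ABT263, against 197, 180 and 226 CPM with vehicle (0.56, SE 0.20). Tspan15, a partner of ADAM10, had 2.94 (SE 0.82), or 1.66 without ABT263 replicate 2. None was called. Of 8 partners of CD9, 3 had values below 0 and 5 above it, with Itga3 at 0.66, Hbegf at 0.27 and Ptgfrn at 0.45.

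Markers of other cells that make GPNMB were mixed. Melanocyte markers summed to 0.96 to 2.05 CPM with ABT263 and 0.98 to 1.30 CPM with vehicle, with Tyrp1 at 0 counts in all 6 libraries, and Pmel, the melanosome protein related to GPNMB, stood at 0.59 to 1.19 CPM with ABT263 and 0.56 to 1.02 CPM with vehicle. Of the osteoclast markers, which summed to 750 to 1996 CPM with ABT263 and 1090 to 2563 CPM with vehicle, the defining Calcr had at most 2 counts in any library. Oscar had at most 20 counts, Ocstamp at most 2.72 CPM and Dcstamp at most 12.2 CPM. Ctsk, Atp6v0d2 and Acp5 were abundant, and Atp6v0d2 is also 1 of the 30 other genes of lipid-associated macrophages above. Ctsk, which encodes cathepsin K, stood at 899, 116 and 395 CPM with ABT263, against 561, 365 and 470 CPM with vehicle. Acp5 stood at 336 ± 93.9 CPM with ABT263 and 485 ± 192 CPM with vehicle (SD, n = 3 each). The part of osteoclast-type cells in the Gpnmb level was not tested.

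Genes with profiles most like the mean of the 7 members were sought among 5649 genes of at least 5 mean log2 CPM, by the same root mean square difference over the 6 libraries. The 10 closest were Cd53 (0.069), Itgb2 (0.11), Tmem189, Lyz1, Gpr137b-ps, Cd84, Lcp1, Ptpre, Kcnab2 and Rnf149 (0.13). Cd53 is a leukocyte tetraspanin, Itgb2 the beta chain of leukocyte integrins, Lyz1 a lysozyme and Lcp1 the leukocyte form of plastin. Lyz1 and Lyz2 are near-identical copies, so their counts are uncertain, as is that of the pseudogene Gpr137b-ps. For single members the closest gene was Laptm5, a lysosomal protein of blood cells, for Trem2 (0.082), Sh3bgrl3 for Tyrobp (0.10), Fnip2 for Gpnmb (0.17), Cadm1 for Lgals3 (0.11), Cyfip2 for Fabp5 (0.058), Csf2rb for Plin2 (0.21) and Inf2 for Cd9 (0.091). Laptm5 is also 1 of the 15 macrophage genes used above. These distances are over 6 libraries that share their groups and the composition of their tissue, and they are given as a description.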

How the data were processed

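RNA was sequenced from 6 samples of aortic arch plaque, 3 with ABT263 and 3 with vehicle. Per the labels' protocols, RNA was column-extracted and libraries were prepared by TruSeq RNA v2 chemistry, which does not mark strand. The authors deposited raw counts for each library, 1 row per gene symbol. The build was mm10, and the tools listed were featureCounts 1.4.6 (from Subread), Bowtie2 2.2.6 and TopHat2 2.0.14, per the submitters' processing notes. Strand setting, annotation and treatment of multi-mapping reads: not given in the sources used here.

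Groups came from the sample titles, and replicate numbers follow accession order and only name samples. In R 4.3.3, genes were kept by filterByExpr of edgeR 4.0.16 (minimum count 10, minimum total 15), which left 15222, scaled by TMM and tested by the quasi-likelihood F-test with the group alone (4 residual degrees of freedom, Benjamini-Hochberg over all genes, threshold 0.05). Levels are CPM after TMM scaling, and SEs are absolute log2 fold changes over the root of F. Log2 CPM used a prior count of 2. Alternatives were limma-voom (limma 3.58.1), DESeq2 1.42.0, other scalings, no filter, and each library left out. Levels beside macrophage genes were compared by exact permutation tests. The edgeR step was tested on simulated counts. Depth leaves counting error small for these genes, and floors cover counting error only.

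The members, the 16 related gene lists and the 17 marker lists were chosen with earlier results of these data known. Named genes were all 7 members, the 3 genes of smallest p in each related list (all, for lists of 7 or fewer kept), the 2 in each marker list, and the genes of closest profile; Syk and Plcg2 were added, and not every gene selected is printed. For 1 gene the table used an older symbol (Emr1 for Adgre1). Positions and lengths are those of GENCODE M21 (GRCm38, the assembly of mm10), matched by symbol for 22708 of 24062 symbols, and promoters are from RefSeq.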

Additional observations from a re-analysis of the deposited data

How the results depend on the processing

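No paired analysis was possible because the labels give the groups no shared replicate numbers. Of the 7 members, 0 were called under every alternative run: size factors by RLE, plain library totals, no filter, DESeq2, limma-voom, each library left out, and both libraries numbered 2 left out (an alternative chosen after seeing the data). Over all genes, 0 were called by each of these but DESeq2, which called 153. Plain library totals moved the median of all genes to 0.092, against 0.0010 with TMM. With 1 library left out, 0 genes were called in each fit and the median over the members ran from -1.002 to -0.30. In these settings 1 to 3 members had groups that did not overlap. Groups of fewer libraries separate more readily by chance, and the share over all genes was not computed there. Single members ran from -1.002 to -0.40 (Trem2), -1.09 to -0.23 (Tyrobp), -0.91 to 0.071 (Gpnmb), -1.23 to -0.33 (Lgals3), -0.95 to -0.43 (Fabp5), -1.15 to -0.001 (Plin2) and -0.36 to 0.36 (Cd9). The sign of Cd9 also turned with limma-voom (-0.16), and that of Tyrobp without both libraries numbered 2 (0.077); the cause was not tested.

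Beside macrophage genes, 0 members were lower with ABT263 with the 15 genes, 2 with Cd68, Csf1r and Laptm5 alone (Trem2 -0.04, Lgals3 -0.10) and 1 without the C1q genes (Lgals3 -0.04). With 1 library left out, 0 to 4 were lower, and the differences ran from -0.07 to 0.23 (Trem2), -0.05 to 0.41 (Tyrobp), -0.24 to 0.91 (Gpnmb), -0.30 to 0.31 (Lgals3), -0.06 to 0.39 (Fabp5), -0.23 to 0.71 (Plin2) and 0.53 to 0.98 (Cd9). A prior count of 0.5 changed no sign.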
